A study of Mus musculus with 2 samples.

Results

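Among donor cells in the spleens of transplanted mice treated with an antibody against IL-2, 101 CD4 cells had neither Tcf7 nor Cxcr5 detected. They were 101 of the 303 CD4 cells of that library (33.3%, exact binomial 95% interval 28.0 to 38.9%) and 7.54% of its 1340 cells with at least 200 detected genes. A gene was called detected in a cell where its deposited value was above 0.7. Members had Cd4 above 0.7 and Cd8a, Cd8b1, Cxcr5 and Tcf7 all at or below it. They are called Tcf7- Cxcr5- cells here, and those 5 genes, which chose them, are given as a description only. The other 202 CD4 cells were 114 Tcf7+ Cxcr5- cells and 88 Cxcr5+ cells.

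Tcf7 encodes TCF-1, a transcription factor that keeps T cells naive or memory-like and is lost as T cells become effectors. Cxcr5 encodes the chemokine receptor that brings follicular helper T cells to B-cell follicles. CD4 cells that lack both are, in many immune responses, effector cells that secrete inflammatory cytokines or carry cytotoxic granules. In graft-versus-host disease such donor cells attack host tissue. IL-2 is a growth factor of activated T cells that signals through STAT5.

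The members came from lethally irradiated WT BALB/C mice that were injected with spleen and bone marrow cells of WT C57BL/6 mice, given an anti-IL-2 monoclonal antibody from day 0 to day 6, and sampled for spleen cells on day 6. The comparison library came from the same kind of recipients given tacrolimus, a calcineurin inhibitor, over the same days. All animals were irradiated and transplanted, so no group without transplantation or without treatment was analysed here, and the sources used here do not give the number of animals behind a library. Each treatment was 1 library, so no difference below has a replicate check, no p-value is given, and intervals cover counting error only. The files held 1551 anti-IL-2 and 1688 tacrolimus cells with values for 2000 genes, and 4 barcode sequences occurred in both libraries. The anti-IL-2 values carried a batch-integration shift, so many results are given again with the estimated shift removed. The Tcf7- Cxcr5- cells had a median of 321 detected genes (203 to 565) and a median fitted total of 12298 UMIs, against 270 genes and 10016 UMIs in the other CD4 cells. Each member was therefore paired with 1 other CD4 cell of like gene number. The 101 matched cells had a median of 312 genes and 11564 UMIs, and 52 were Tcf7+ Cxcr5- and 49 Cxcr5+.

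Markers of CD4 T cells were present. Cd40lg, which encodes the CD40 ligand of helper T cells, was detected in 56.4% of the Tcf7- Cxcr5- cells (46.2 to 66.3%) and 61.4% of the other CD4 cells (54.3 to 68.1%). It was in 2.42% of 785 cells with Cd8a or Cd8b1 and no Cd4 (median 378 genes). A set of 63 cells with at least 2 markers of another lineage (median 348 genes) was chosen to have no Cd4, Cd8a, Cd8b1, Cd40lg, Cd5 or Cd6 detected, so it gives a background level for other genes but not for these 6. The T-cell genes Cd5, Cd6 and Icos were in 89.1%, 58.4% and 83.2% of the Tcf7- Cxcr5- cells, against 82.2%, 67.8% and 88.6% of the other CD4 cells. Icos, which did not choose the 63 cells, was in 0 of them (0 to 5.69%). Of 13 measured B and plasma cell markers 2 reached 5% of cells, and 0 were higher or lower by the size rule defined below. Cd79a and Ms4a1 were at 0 in the members, Cd79b was in 3.96% of members and 0.990% of matched cells, and Xbp1, which T cells also use, was in 53.5% of members and 51.5% of matched cells. Of 12 measured dendritic cell markers 5 reached 5% and 0 were higher or lower. Under 5%, Itgax, H2-Aa, H2-Ab1 and H2-Eb1 were in 2.97 to 3.96% of members, while H2-Ab1 was in 1.98% and the other 3 in 0 of the matched cells. Of 20 measured monocyte, macrophage and granulocyte markers 4 reached 5%, 1 was higher and 0 lower. The higher one was Ifitm3, an interferon-induced membrane protein gene, in 31.7% of members and 17.8% of matched cells, while Csf1r, Adgre1 and S100a9 were at 0 in the members. Without cells that had at least 2 markers of another lineage, 97 members were left, with 207 genes higher and 141 lower. Of 9 measured NK, NKT and gamma-delta T cell markers 4 reached 5%, 1 was higher (Klrc1) and 2 were lower (Klrb1c and Cd160). Klrb1c, an NK-cell receptor gene, was in 0 members and 6.93% of matched cells, while Klrc1 is given below with the cytotoxic genes. Car2, a carbonic anhydrase gene of erythroid cells, was in 8.91% of members and 1.98% of matched cells.

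The gate had soft edges. Cd4 values of the members ran between 0.876 and 3.93 (natural log scale, median 2.50), with 1 member within 0.2 of the cutoff, and the nearest cell outside was at 0.605. Within 0.2 of the cutoff were also 8 members for Tcf7 and 15 for Cd8b1, whose highest value was 0.652, and 0 for Cxcr5 or Cd8a. The highest Tcf7 value among members was 0.604, and the lowest among other CD4 cells with Tcf7 was 0.727. With the shift removed, 7 of the 101 members had Tcf7, 1 had Cd8b1, and 0 had Cxcr5 or Cd8a. Among cells with Cd8a or Cd8b1, both genes were detected in 86.3%, and 155 of these 940 cells (16.5%) also had Cd4 and were left out by the gate.

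Against the matched CD4 cells, the Tcf7- Cxcr5- cells had more granzyme, killer-receptor and inflammatory homing genes and more genes of mitosis, and fewer genes of naive and memory cells, of follicular helper cells and of the type I interferon response. Both sets came from 1 library and Tcf7 and Cxcr5 chose the members, so every gene below counts as related to the rule. A gene counted as higher or lower where its share of cells differed by at least 5 percentage points and 1.5-fold, with at least 5% in either set. By this size rule 198 of 886 genes were higher (22.3%) and 116 were lower (13.1%), and the median log2 ratio over all 886 was 0.02. Without matching on gene number 283 were higher (32.2%) and 90 lower (10.2%). After removal of the estimated shift 225 of 894 genes were higher (25.2%) and 113 lower (12.6%). Of the 198 and the 116 named first, 183 and 92 kept their side, and 0 took the opposite one. With only cells that had Cd40lg in both sets (57 members), 229 of 927 were higher (24.7%) and 141 lower (15.2%).

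The gene with the widest gap was Bhlhe40, a transcription factor gene of inflammatory helper T cells (chromosome 6 from 108660629 to 108666925, mm10). It was in 78.2% of Tcf7- Cxcr5- cells (68.9 to 85.8%) and 29.7% of matched CD4 cells (21.02 to 39.6%), a 2.63-fold ratio (1.71 to 4.15). Its share was 43.0% in Tcf7+ Cxcr5- cells and 18.2% in Cxcr5+ cells, so the other CD4 cells were not uniform. Ggt1, which encodes a gamma-glutamyl transferase of glutathione metabolism, was in 70.3% of members and 23.8% of matched cells, and in 6.82% of Cxcr5+ cells. Anxa1, the annexin A1 gene, was in 84.2% of members and 44.6% of matched cells. Ctla2a, which encodes a cathepsin inhibitor, was in 81.2% of members and 48.5% of matched cells. Klf6, a Krüppel-like factor gene, was in 62.4% of members and 30.7% of matched cells, and Racgap1, a cytokinesis gene, in 58.4% of members and 25.7% of matched cells. Of genes with no role given here, 1500009L16Rik was in 65.3% of members and 28.7% of matched cells, and AA467197 in 51.5% of members and 18.8% of matched cells. The calls of Mt1, a metallothionein gene, and Dusp5, a MAP kinase phosphatase gene, rested on the shift. Mt1 was in 74.3% of members and 38.6% of matched cells at the cutoff, but in 30.7% of members and 27.7% of matched cells with the shift removed. Dusp5 was in 59.4% of members and 29.7% of matched cells at the cutoff, and in 49.5% of members and 33.7% of matched cells with the shift removed.

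**Figure D1:**
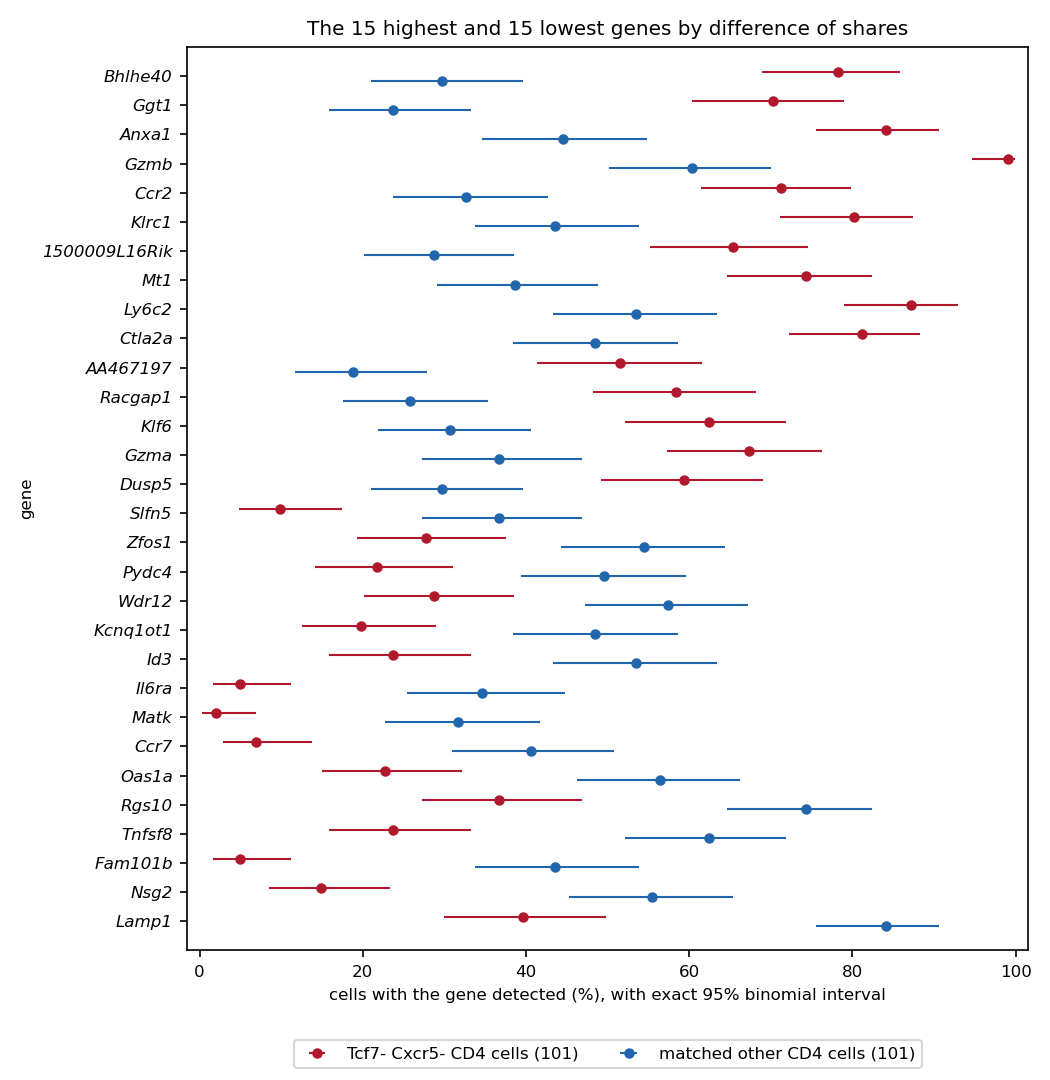
Share of cells with each gene detected (x axis, percent) in 101 Tcf7- Cxcr5- CD4 cells and 101 other CD4 cells matched on gene number, for the 15 genes with the highest and the 15 with the lowest difference past the size rule (y axis). Points are shares and bars are exact 95% binomial intervals. For Bhlhe40 the shares were 78.2% of Tcf7- Cxcr5- cells and 29.7% of matched cells, and for Lamp1 39.6% of Tcf7- Cxcr5- cells and 84.2% of matched cells.

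At the other end, Lamp1, which encodes a lysosomal membrane protein that reaches the cell surface when granules are released, was in 39.6% of Tcf7- Cxcr5- cells (30.01 to 49.8%) and 84.2% of matched cells (75.6 to 90.7%). Nsg2, which encodes a vesicle-trafficking protein best known from neurons, was in 14.9% of members and 55.4% of matched cells. Fam101b was in 4.95% of members and 43.6% of matched cells. Matk, which encodes a kinase that inhibits Src-family kinases, was in 1.98% of members and 31.7% of matched cells. Tnfsf8, the CD30 ligand gene, was in 23.8% of members and 62.4% of matched cells, and Rgs10, a regulator of G-protein signalling, in 36.6% of members and 74.3% of matched cells. Wdr12, a ribosome biogenesis gene, was in 28.7% of members and 57.4% of matched cells. Zfos1 was in 27.7% of members and 54.5% of matched cells. Kcnq1ot1, a noncoding RNA antisense to Kcnq1, was in 19.8% of members and 48.5% of matched cells, but the sources used here do not give whether counting used the strand. All of these were in fewer members with the shift removed as well.

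Genes of the cytotoxic granule were in more Tcf7- Cxcr5- cells. Gzmb, the granzyme B gene (chromosome 14 from 56258838 to 56262260), was in 99.0% of them (94.6 to 100%) and 60.4% of matched cells (50.2 to 70.0%), a 1.64-fold ratio (1.18 to 2.29). In the 63 cells of other lineages, from which NK cells were not excluded, Gzmb was in 11.1%. Gzma, the granzyme A gene (chromosome 13 from 113093825 to 113100981), was in 67.3% of members (57.3 to 76.3%) and 36.6% of matched cells (27.3 to 46.8%), with 4.76% in the 63. Gzmk was in 34.7% of members and 18.8% of matched cells, and in 0 of the 63. Of 12 list genes at the minimum share, 8 were higher, 1 lower (Lamp1) and 3 neither, with a median log2 ratio of 0.79. The other higher genes were Gzmm, Serpinb9, Klrg1, Klrd1 and Klrk1. Klrd1, which encodes CD94, was in 45.5% of members and 19.8% of matched cells. Its partner in an inhibitory receptor, Klrc1, which encodes NKG2A, was in 80.2% of members and 43.6% of matched cells, and in 0 of the 63. Klrg1, a receptor gene of terminal effector cells, was in 15.8% of members and 2.97% of matched cells. Nkg7, a granule protein gene, was in 98.0% of both sets, where a 1.5-fold rise was not possible.

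The shift touched some cytotoxic calls. Serpinb9, which encodes a granzyme B inhibitor, was in 79.2% of Tcf7- Cxcr5- cells and 50.5% of matched cells at the cutoff, and in 65.3% of members and 45.5% of matched cells with the shift removed, a difference under 1.5-fold. Gzmm was in 10.9% of members and 1.98% of matched cells at the cutoff and in 6.93% of members and 1.98% of matched cells with the shift removed. Klrk1, which encodes NKG2D, was in 7.92% of members and 0.99% of matched cells at the cutoff and in 3.96% of members and 1.98% of matched cells with the shift removed. Prf1, the perforin gene, was neither at the cutoff (21.8% of members and 15.8% of matched cells) and higher with the shift removed (21.8% of members and 9.90% of matched cells). The list had 6 higher and 1 lower of 11 once the shift was removed. In cells with at least 300 detected genes, 5 of 12 were higher and 1 lower, beside 22.5% and 16.8% of all genes. In cells with Cd40lg, 8 of 12 were higher and 1 lower. There Gzmb was in 100% of 57 members and 70.2% of matched cells, just under 1.5-fold, and Gzma in 61.4% of members and 38.6% of matched cells.

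Homing genes were in more Tcf7- Cxcr5- cells at the cutoff of 0.7, though fewer of them passed in some other settings. The calls of the Th1 and inflammatory list depended on the cutoff. Ccr2, the receptor gene for monocyte-attracting chemokines (chromosome 9 from 124101950 to 124113557), was in 71.3% of members (61.4 to 79.9%) and 32.7% of matched cells (23.7 to 42.7%). Ly6c2, a surface protein gene of effector T cells with near-identical copies, was in 87.1% of members and 53.5% of matched cells. Itgam, which encodes an integrin chain, was in 5.94% of members and in 0 of 101 matched cells. Against a floor of 3 cells for that 0 it was 2-fold higher, a bound that leaves out counting error in the members. It was neither with the shift removed (5.94% of members and 0.990% of matched cells). Together 4 of 7 homing and adhesion genes were higher and 0 lower (median log2 ratio 0.70, and the same with Itgam at its bound). With at least 300 genes per cell, 2 of 9 homing genes were higher and 0 lower (median 0.36), near the 22.5% higher over all genes there. In cells with Cd40lg, 3 of 7 were higher and 1 lower, while at a cutoff of 1, 5 of 7 were higher and 0 lower. The chemokine genes Ccl3 and Ccl4 were in 10.9% and 14.9% of members, against 4.95% and 3.96% of matched cells. Ifng, the interferon-gamma gene, was in 19.8% of members (12.5 to 28.9%) and 16.8% of matched cells (10.1 to 25.6%). Tnf was in 3.96% of members and 9.90% of matched cells. Of 12 Th1 and inflammatory genes, 4 were higher, 1 lower and 7 neither (median 0.42), beside 22.3% higher over all genes. At a detection cutoff of 0.5, 0 of the 12 were higher and 2 lower (median 0.09), where 18.4% of all genes were higher and 15.9% lower. At a cutoff of 1, 8 were higher and 1 lower (median 1.19), where 27.9% of all genes were higher and 12.9% lower. With at least 300 genes per cell 2 of 13 were higher and 1 lower (median 0.23), where 22.5% of all genes were higher and 16.8% lower.

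More of that list passed once the shift was removed, with 8 higher and 1 lower of 12. Ccl5, a chemokine gene, was then in 45.5% of Tcf7- Cxcr5- cells and 14.9% of matched cells, against 52.5% of members and 38.6% of matched cells at the cutoff. Cxcr6, a homing receptor gene of tissue T cells, was in 86.1% of members and 52.5% of matched cells (92.1% of members and 66.3% of matched cells at the cutoff). Il12rb2, an IL-12 receptor chain gene, was in 35.6% of members and 23.8% of matched cells (51.5% of members and 38.6% of matched cells at the cutoff). Ifng was in 19.8% of members and 12.9% of matched cells, just past the rule. The direction of Ccl3 reversed at a cutoff of 0.5, with a log2 ratio of -0.61.

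Naive and memory genes were in fewer Tcf7- Cxcr5- cells, beyond Tcf7 itself. Ccr7, the lymph-node homing receptor gene (chromosome 11 from 99144196 to 99155077), was in 6.93% of members (2.83 to 13.8%) and 40.6% of matched cells (30.9 to 50.8%), a ratio of 0.171 (0.0646 to 0.384). Id3, an inhibitor of E-protein transcription factors, was in 23.8% of members and 53.5% of matched cells. Il6ra, an IL-6 receptor gene, was in 4.95% of members and 34.7% of matched cells. Actn1, an actin cross-linking protein gene, was in 32.7% of members and 52.5% of matched cells. With Nsg2 these made 5 of 8 genes lower and 0 higher (median log2 ratio -1.51). Il7r, an IL-7 receptor gene, was in 53.5% of members and 60.4% of matched cells at the cutoff, but in 50.5% of members and 33.7% of matched cells with the shift removed, the 1 list gene that was then higher. Members were defined by low Tcf7, so the direction of genes that go with Tcf7 across T cells is not independent of the rule.

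Several follicular helper genes other than Cxcr5 were in fewer Tcf7- Cxcr5- cells. Members lacked Cxcr5 by the rule and many matched cells had it, so the direction of genes that go with Cxcr5 is not independent of the rule. Sostdc1, which encodes a secreted antagonist of BMP and WNT signalling, was in 8.91% of Tcf7- Cxcr5- cells and 26.7% of matched cells. Pou2af1, a transcriptional coactivator gene, was in 1.98% of members and 15.8% of matched cells, and P2rx7, an ATP-gated channel gene, in 2.97% of members and 17.8% of matched cells. Tox2, a transcription factor gene, was in 11.9% of members and 35.6% of matched cells. With Tnfsf8 these made 5 of 10 lower and 0 higher (median -1.08). The 3 measured genes of the Th2 and Th17 list did not reach the minimum share.

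The plot of log2 ratios by gene list shows these groups side by side.

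**Figure D2:**
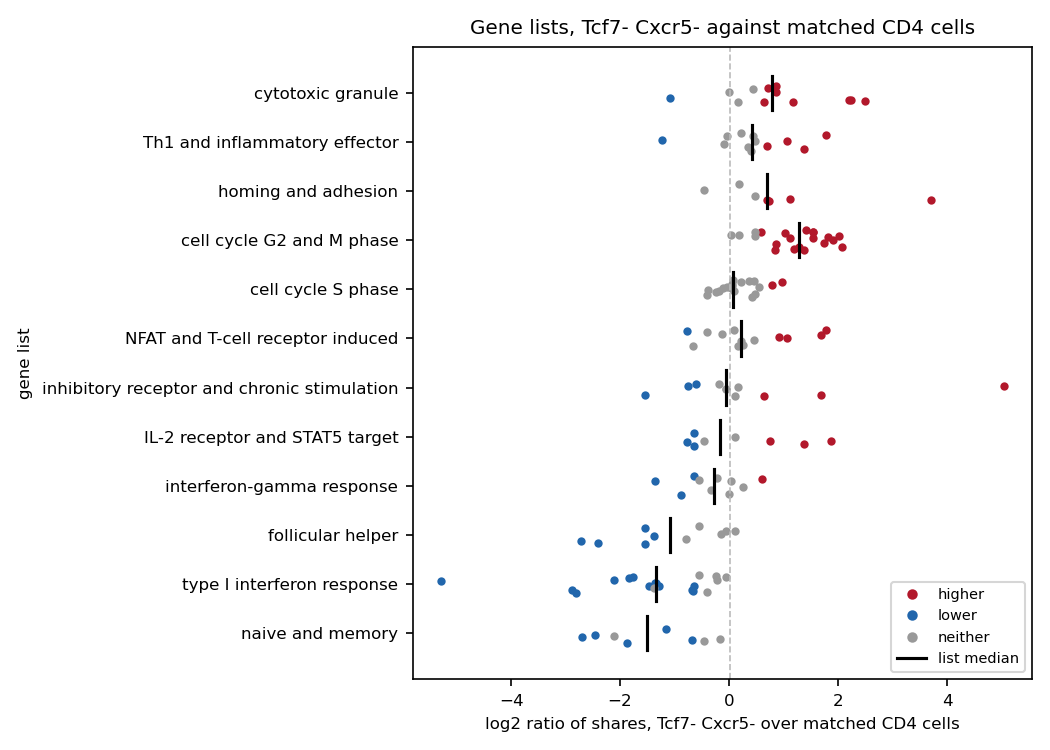
Log2 ratio of the share of cells with each gene detected (x axis, 0.5 cells added to each count), 101 Tcf7- Cxcr5- CD4 cells over 101 matched CD4 cells, for the genes at the minimum share in 12 gene lists (y axis). Each point is 1 gene, coloured by its call under the size rule, black bars are list medians and the dashed line is the median of all 886 genes (0.02). Medians run between 1.29 for G2 and M phase and -1.51 for naive and memory genes; the points at the far left and far right are Oasl2 and Entpd1, each at 0 in 1 set, so their positions depend on the 0.5 cells added.

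Genes of the type I interferon response were in fewer Tcf7- Cxcr5- cells. Of 19 list genes at the minimum share, 13 were lower, 0 higher and 6 neither, with a median log2 ratio of -1.34. Oasl2, an oligoadenylate synthetase-like gene, was in 0 of 101 members and in 18.8% of matched cells (11.7 to 27.8%). Against a floor of 3 cells for that 0 (2.97%) it was 6.33-fold lower, which leaves out counting error in the matched cells. Rsad2, the gene of the antiviral protein viperin, was in 1.98% of members and 16.8% of matched cells. Oas1a, which encodes an enzyme that senses double-stranded RNA, was in 22.8% of members and 56.4% of matched cells. Usp18, which removes ISG15 from proteins and damps receptor signalling, was in 6.93% of members and 24.8% of matched cells. Ifit1 was in 9.90% of members and 25.7% of matched cells, Ifit3 in 3.96% of members and 18.8% of matched cells, and its near-identical copy Ifit3b in 1.98% of members and 17.8% of matched cells. These encode proteins that bind foreign RNA. Isg15, a ubiquitin-like modifier gene, was in 43.6% of members (33.7 to 53.8%) and 68.3% of matched cells (58.3 to 77.2%). The transcription factor gene Irf7 was in 41.6% of members and 67.3% of matched cells, and Slfn5, a schlafen gene, in 9.90% of members and 36.6% of matched cells. Pydc4, an interferon-inducible gene outside the list, was in 21.8% of members and 49.5% of matched cells. Among non-dividing cells 13 of 18 were lower, where 19.7% of all genes were, and in cells with Cd40lg 11 of 18, with 0 higher in both. Removal of the shift left 11 of 19 lower and 0 higher. Isg15 (47.5% of members and 63.4% of matched cells) and Mx1 (3.96% of members and 8.91% of matched cells, against 3.96% and 10.9% at the cutoff) were then neither.

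Many of these promoters carry the letters of the interferon-stimulated response element, found upstream of many interferon-induced genes. The letters searched were GAAANNGAAA on either strand, in RefSeq promoter sequences (GRCm38.p6) of 300 bases around each gene's start. Of 19 list genes 15 had a promoter sequence, and 10 of these (66.7%) held a match. Over all 27025 genes with a promoter the share was 3.99%, and over the measured genes with a promoter 6.49%. Matches were in 8 of 10 lower genes with a promoter and in 2 of 5 genes that were neither, Oas3 and Bst2. The sequences below show matches in the RefSeq promoters of 4 genes that were lower in Tcf7- Cxcr5- cells and of Bst2, which was detected in 67.3% of members and 79.2% of matched cells and was neither. Capitals mark matches, overlapping ones included, and each sequence is 5′ to 3′ on the gene's own strand.
Isg15, chr4:156200862-156200921, minus strand: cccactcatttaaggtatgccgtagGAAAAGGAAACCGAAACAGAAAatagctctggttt
Ifit1, chr19:34640760-34640819, plus strand: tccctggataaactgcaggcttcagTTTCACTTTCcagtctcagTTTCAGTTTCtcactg
Rsad2, chr12:26456538-26456597, minus strand: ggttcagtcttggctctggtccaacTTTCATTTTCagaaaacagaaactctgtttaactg
Slfn5, chr11:82951922-82951981, plus strand: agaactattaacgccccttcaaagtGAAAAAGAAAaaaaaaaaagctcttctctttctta
Bst2, chr8:71537568-71537627, minus strand: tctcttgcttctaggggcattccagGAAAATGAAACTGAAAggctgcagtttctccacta
The Isg15 promoter held 3 matches and those of Ifit1 and Bst2 held 2 each. A match was therefore present both in genes that were lower and in a gene that was not, and it describes letters, not binding. Slfn5 starts at 82951349 in GENCODE M21, so by that annotation its window lies within the gene.

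Interferon-gamma response genes split. Gbp3, a guanylate-binding protein gene, was in 25.7% of Tcf7- Cxcr5- cells and 16.8% of matched cells, while Iigp1 (3.96% of members and 10.9% of matched cells), Irgm2 (8.91% of members and 16.8% of matched cells) and Socs1 (34.7% of members and 54.5% of matched cells) were lower. Of 10 genes 1 was higher, 3 lower and 6 neither (median -0.27). In cells with Cd40lg the log2 ratio of Gbp3 was 0.

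Genes of mitosis were in more Tcf7- Cxcr5- cells at equal gene number, and how many genes of DNA replication were depended on the setting. Plk1, a kinase gene of mitotic entry, was in 32.7% of members (23.7 to 42.7%) and 10.9% of matched cells (5.56 to 18.7%). Cdc20, which activates the anaphase-promoting complex, was in 35.6% of members and 11.9% of matched cells. Kif20a, a kinesin gene of cytokinesis, was in 26.7% of members and 5.94% of matched cells, and Aurka, the aurora A kinase gene, in 23.8% of members and 5.94% of matched cells. The cyclin genes Ccnb1 and Ccna2 were in 30.7% and 44.6% of members, against 13.9% and 24.8% of matched cells. Of 21 G2 and M phase genes 17 were higher and 0 lower (median 1.29), while of 19 S phase genes 2 were higher (Gins2 and Clspn) and 17 neither (median 0.07). Mki67, the Ki-67 gene, was in 47.5% of members and 41.6% of matched cells, and Top2a, which encodes topoisomerase II alpha, in 51.5% of members and 50.5% of matched cells. By either of these 2 genes 62 of 101 members (61.4%, 51.2 to 70.9%) and 62 of 101 matched cells were called dividing. The share called dividing was thus equal at matched gene number, but only by these 2 genes at the cutoff. Over all 202 other CD4 cells the share was 43.1% (36.1 to 50.2%). This share was not computed with the shift removed, so whether members and matched cells divided equally was not tested further. With the shift removed 19 of the 21 G2 and M phase genes were higher (median 1.53), Mki67 among them (45.5% of members and 25.7% of matched cells), and 5 of 19 S phase genes were higher (median 0.36). At a cutoff of 1 the counts were 20 of 21 and 9 of 19, and at 0.5 they were 11 of 21 (median 0.62) and 1 of 19. Dividing members had a median of 376.5 genes and the 39 non-dividing ones 254, so gene number moved with division.

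Genes of IL-2 signalling went both ways in Tcf7- Cxcr5- cells at the cutoff. Il2ra, the alpha chain gene of the high-affinity receptor (chromosome 2 from 11642807 to 11693193), was in 28.7% of members (20.1 to 38.6%) and 16.8% of matched cells (10.1 to 25.6%). Cish, a feedback inhibitor that STAT5 induces, was in 15.8% of members and 3.96% of matched cells. Socs1, Pim2 (43.6% of members and 68.3% of matched cells) and Myc (17.8% of members and 30.7% of matched cells) were lower. Bcl2, an anti-apoptotic gene, was in 42.6% of members and 58.4% of matched cells. Of 8 genes 3 were higher (with Bhlhe40), 3 lower and 2 neither. With the shift removed 4 were higher and 1, Socs1, was lower. Ccnd2, the cyclin D2 gene, was the added higher one, in 47.5% of members and 31.7% of matched cells, against 63.4% of members and 58.4% of matched cells at the cutoff. The median of -0.17 was 0.10 with the shift removed, when Pim2 (43.6% of members and 61.4% of matched cells) and Myc (17.8% of members and 25.7% of matched cells) were neither, and 0.55 among non-dividing cells. Il2 was in 1.98% of members and 2.97% of matched cells, under the minimum share.

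Genes of regulatory and chronically stimulated T cells did not move together either. Foxp3, the factor of regulatory T cells, was in 4 of 101 Tcf7- Cxcr5- cells (3.96%, 1.09 to 9.83%) and in 0 of the 202 other CD4 cells (0 to 1.81%). Ikzf2, which encodes Helios, was in 16.8% of members and 40.6% of matched cells, and Izumo1r, which encodes folate receptor 4, in 9.90% of members and 33.7% of matched cells. Tnfrsf9, which encodes the costimulatory receptor 4-1BB, was in 37.6% of members and 19.8% of matched cells. Of 11 regulatory and Tr1 genes 3 were higher, 2 lower and 6 neither. Entpd1, which encodes the ectoenzyme CD39 (chromosome 19 from 40612366 to 40741602), was in 15.8% of members (9.33 to 24.4%) and 0 of 101 matched cells. Against a floor of 3 cells for that 0 it was 5.33-fold higher, a bound that leaves out counting error in the members. Havcr2, which encodes TIM-3, was in 43.6% of members and 27.7% of matched cells, and Nr4a1, a T-cell receptor-induced factor gene, in 13.9% of members and 3.96% of matched cells. Tox, a factor gene of chronic T-cell stimulation, was in 40.6% of members and 62.4% of matched cells, and Cd160 in 13.9% of members and 23.8% of matched cells. The receptor genes Pdcd1, Lag3 and Ctla4 were in 73.3%, 43.6% and 64.4% of members, against 76.2%, 49.5% and 67.3% of matched cells. Of the 11 inhibitory receptor genes 3 were higher, 3 lower and 5 neither (median -0.06, and the same with Entpd1 at its bound).

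In the remaining lists, the calls in Tcf7- Cxcr5- cells stand beside 22.3% higher and 13.1% lower over all 886 genes. Of 13 NFAT and T-cell receptor-induced genes 4 were higher and 1 lower, and of 17 MYC and mTORC1 growth genes 1 was higher and 3 lower. All 6 glycolysis genes were in too many matched cells for a 1.5-fold rise. Of 7 survival and apoptosis genes 2 were lower, Pim2 and Bcl2l11, which encodes the pro-apoptotic protein BIM (13.9% of members and 25.7% of matched cells). Of 3 anergy genes Izumo1r was lower. Of 10 immediate early and dissociation stress genes Fos (9.90% of members and 18.8% of matched cells) and Hspa1b (5.94% of members and 13.9% of matched cells) were lower and 0 higher. The 10 genes with the highest share in members among those in under 80% of the other CD4 cells were Gzmb, Serpinb6b, Tpi1, 2700094K13Rik, Cxcr6, Glrx, Hsp90b1, Manf, Itgb1 and Calr. Their shares in members ran between 90.1% for Calr and 99.0% for Gzmb, and among these 10 Gzmb was the 1 that passed the size rule against matched cells.

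The Tcf7- Cxcr5- cells were not uniform. With 7 granzyme genes measured, 0 members had none, 27 had 1, 37 had 2, 32 had 3 and 5 had 4 or more. At least 2 granzyme genes were detected in 73.3% of members (63.5 to 81.6%) and 36.6% of matched cells (27.3 to 46.8%). Of 8 naive and memory genes, at least 3 were detected in 16.8% of members (10.1 to 25.6%) and 59.4% of matched cells (49.2 to 69.1%). Of the 17 members with at least 3 such genes, 4 also had at least 2 granzyme genes (23.5%, 6.81 to 49.9%).

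**Figure D3:**
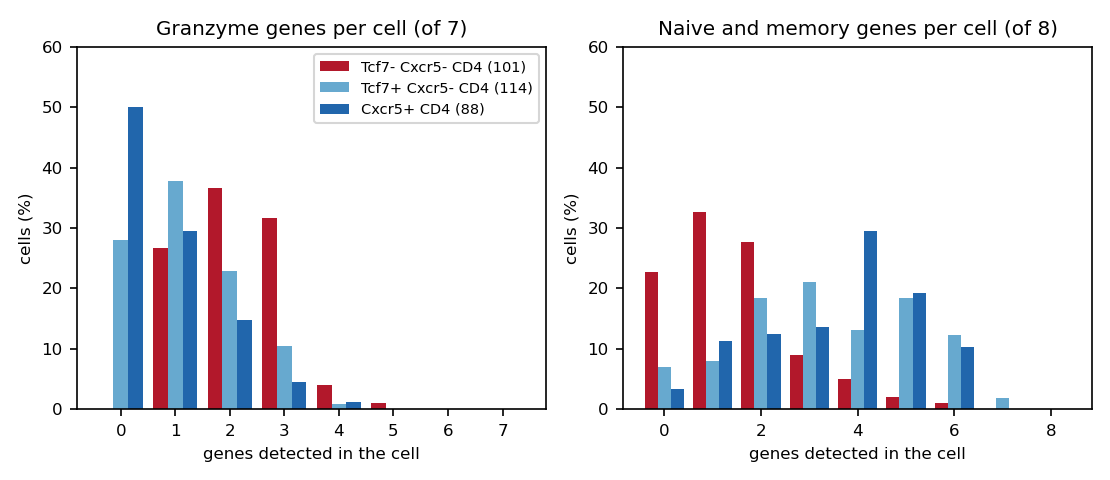
Number of granzyme genes (left panel, of 7) and of naive and memory genes (right panel, of 8) detected per cell (x axes) in 101 Tcf7- Cxcr5- CD4 cells, 114 Tcf7+ Cxcr5- CD4 cells and 88 Cxcr5+ CD4 cells, as percent of the cells of each set (y axes). Depth is not matched here. The median number of granzyme genes was 2 in Tcf7- Cxcr5- cells, 1 in Tcf7+ Cxcr5- cells and 0.5 in Cxcr5+ cells, and that of naive and memory genes 1, 3 and 4.

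Cytokine genes sat in a minority. Ifng was detected in 20 members, and 10 of these also had Ccl4, against 6.17% of the members without Ifng. Of 11 members with Ccl3, 8 had Ccl4. Il2ra was in 29 members, of which 10 had Ifng (34.5%, against 13.9% of the others). Median gene number was 435 in members with Ifng and 299 in those without. It was 338 and 300 for Il2ra, and 308 and 321.5 for Ccl3. Whether depth bears on these pairs was not tested.

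The pattern was also present in members that were not dividing. In the 39 non-dividing Tcf7- Cxcr5- cells and 39 matched non-dividing CD4 cells, Gzmb was in 97.4% of members and 43.6% of matched cells. Bhlhe40 was in 89.7% of members and 23.1% of matched cells, Ccr2 in 76.9% of members and 15.4% of matched cells, and Ifng in 15.4% of members and 2.56% of matched cells. Nsg2 was in 28.2% of members and 74.4% of matched cells. Dividing members had Gzma in 74.2% and non-dividing members in 56.4%, while Bhlhe40 was in 71.0% of dividing and 89.7% of non-dividing members. Nsg2 was in 6.45% of dividing and 28.2% of non-dividing members. Of 13 cytotoxic genes 10 were higher and 1 lower among non-dividing cells, and of 12 Th1 and inflammatory genes 9 were higher and 1 lower. Over all 822 genes at the minimum share there, 25.9% were higher and 19.7% lower. Cells without Mki67 and Top2a still had other cell cycle genes, of which 5 of 6 G2 and M phase genes were higher and 0 lower, and 7 of 17 S phase genes were higher and 2 lower.

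Set against each kind of CD4 cell alone, the Tcf7- Cxcr5- cells had 270 of 873 genes higher (30.9%) and 74 lower (8.48%) than Tcf7+ Cxcr5- cells paired on gene number. All 101 members were paired from only 114 such cells, so gene number stayed unequal there (medians before pairing 321 in members and 262.5 in Tcf7+ Cxcr5- cells). Without pairing, 303 genes were higher and 71 lower. Against Cxcr5+ cells they had 241 of 892 higher (27%) and 165 lower (18.5%). In both comparisons 206 genes were higher and 65 lower. Without matching, Gzmb was in 99.0% of Tcf7- Cxcr5- cells, 62.3% of Tcf7+ Cxcr5- cells and 39.8% of Cxcr5+ cells. For Klrc1 the shares were 80.2% of Tcf7- Cxcr5- cells, 43.9% of Tcf7+ Cxcr5- cells and 26.1% of Cxcr5+ cells, and for Ly6c2 87.1%, 44.7% and 37.5% of the same sets. Of the cytotoxic list 8 of 12 genes were higher and 1 lower against Tcf7+ Cxcr5- cells, and 9 of 12 higher and 1 lower against Cxcr5+ cells. Of the type I interferon list 11 of 18 and 13 of 18 were lower and 0 higher. Of S phase genes 11 of 19 were higher than in Tcf7+ Cxcr5- cells and 7 of 18 than in Cxcr5+ cells, against 2 of 19 in the pooled matching. In the pooled matching the median gene number was 321 in members and 312 in matched cells. Whether gene number bears on these S phase counts was not tested. The median log2 ratio of all tested genes was 0.25 against Tcf7+ Cxcr5- cells and 0.02 against Cxcr5+ cells, so the first set of counts stands on a higher base. Against the Cxcr5+ cells 88 of the members were used, 1 for each such cell.

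The shift left by integration bore on groups, as given above for the Th1, S phase and IL-2 lists, and on single genes. Ctrb1, which encodes a pancreatic digestive enzyme and is no gene of T cells, was in 40.6% of Tcf7- Cxcr5- cells and 20.8% of matched cells at the cutoff, and in 0.99% of members and 1.98% of matched cells with the shift removed. Most of its values above 0.7 were thus no longer read as detections. Mt1 was a second case among the named genes.

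**Figure D4:**
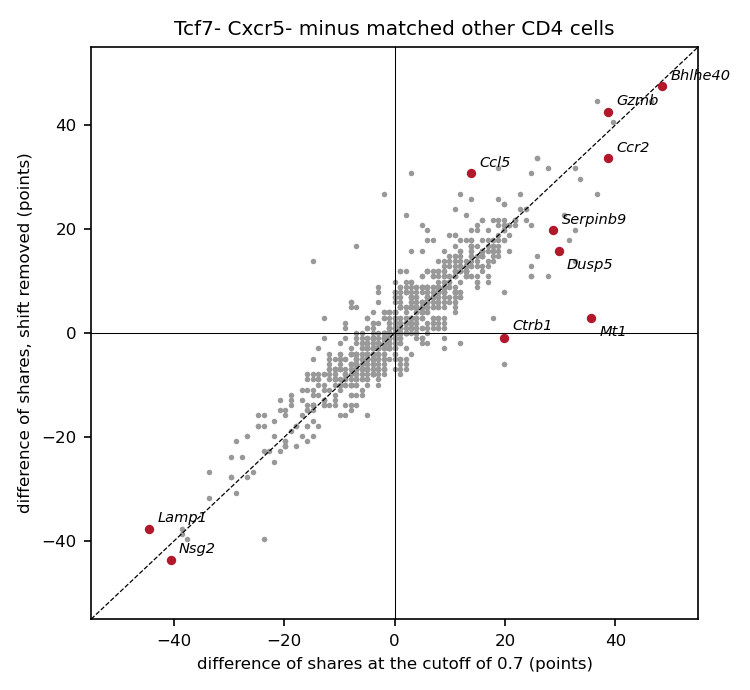
Difference in the share of cells with each gene detected, Tcf7- Cxcr5- cells minus matched CD4 cells in percentage points, at the cutoff of 0.7 (x axis) and after the estimated integration shift was removed (y axis). Each point is 1 of the genes at the minimum share, the genes that chose the cells are left out, and the dashed line marks equal values. Bhlhe40, Gzmb and Ccr2 lie near the line, while Mt1 and Ctrb1 lie near 0 on the y axis.

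The same gate was far more common among tacrolimus CD4 cells. It held 250 of 294 CD4 cells there (85.0%, 80.4 to 88.9%), against 33.3% in the anti-IL-2 library. Treatment and library cannot be told apart, and Tcf7 and Cxcr5 chose the cells, so the shares are a description. With the shift removed and 101 of the 250 cells matched on gene number, the anti-IL-2 Tcf7- Cxcr5- cells had 54 of 880 genes higher (6.14%) and 71 lower (8.07%), with an all-gene median of -0.03. The other values in this comparison are also with the shift removed.

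Most effector genes did not pass the size rule between the libraries. Gzmb was in 95.05% of anti-IL-2 and 89.1% of tacrolimus Tcf7- Cxcr5- cells, Bhlhe40 in 73.3% of anti-IL-2 members and 65.3% of tacrolimus cells, Klrc1 in 68.3% of anti-IL-2 members and 64.4% of tacrolimus cells, and Ccr2 in 54.5% of anti-IL-2 members and 61.4% of tacrolimus cells. Ifng was in 19.8% of anti-IL-2 members and 23.8% of tacrolimus cells, and Il2ra in 20.8% of anti-IL-2 members and 30.7% of tacrolimus cells, also neither. Of 12 cytotoxic genes 1 was higher, Gzma (56.4% of anti-IL-2 members and 36.6% of tacrolimus cells), and 0 were lower. For 4 of the 12, Gzmb among them, the tacrolimus share was too high for a 1.5-fold rise. Bcl2 had the widest positive gap of the genes past the size rule, with 50.5% in the anti-IL-2 and 20.8% in the tacrolimus library (2.43-fold, 1.44 to 4.25). Tnfrsf25, which encodes a death-domain receptor, was in 33.7% of anti-IL-2 members and 8.91% of tacrolimus cells. Naive genes were in more of the anti-IL-2 cells, with 5 of 6 genes higher and 0 lower (median 1.88), but with the shift removed 7 of the 101 anti-IL-2 cells also had Tcf7. Id3 was in 24.8% of anti-IL-2 members and 5.94% of tacrolimus cells, Ccr7 in 6.93% of anti-IL-2 members and 0.99% of tacrolimus cells, and Actn1 in 35.6% of anti-IL-2 members and 19.8% of tacrolimus cells. Tnfsf8 was in 23.8% of anti-IL-2 members and 3.96% of tacrolimus cells, Tox2 in 12.9% of anti-IL-2 members and 1.98% of tacrolimus cells, and Sostdc1 in 8.91% of anti-IL-2 members and 0 of 101 tacrolimus cells. Of 12 type I interferon genes 4 were higher (Ifit1, Oas1a, Oas3 and Rtp4) and 0 lower. Oas1a was in 24.8% of anti-IL-2 members and 7.92% of tacrolimus cells, and Rtp4 in 40.6% of anti-IL-2 members and 20.8% of tacrolimus cells.

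In the other direction, Ccl3 was in 9.90% of anti-IL-2 and 15.8% of tacrolimus Tcf7- Cxcr5- cells, and Ccl4 in 10.9% of anti-IL-2 members and 16.8% of tacrolimus cells. Zbtb32, a transcriptional repressor gene, was in 34.7% of anti-IL-2 members and 55.4% of tacrolimus cells, Ccnb1 in 25.7% of anti-IL-2 members and 42.6% of tacrolimus cells, and Bcl2l11 in 9.90% of anti-IL-2 members and 26.7% of tacrolimus cells. Of 21 G2 and M phase genes Ccnb1 was the 1 that was lower and 0 were higher. Genes of the exocrine pancreas, which T cells do not use, were lower for 11 of 12 (median -3.82, and -2.54 with the genes at 0 at their bound). Ctrb1 was in 0.99% of anti-IL-2 members and 39.6% of the matched tacrolimus cells. The part of such RNA in the other values was not tested.

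**Figure D5:**
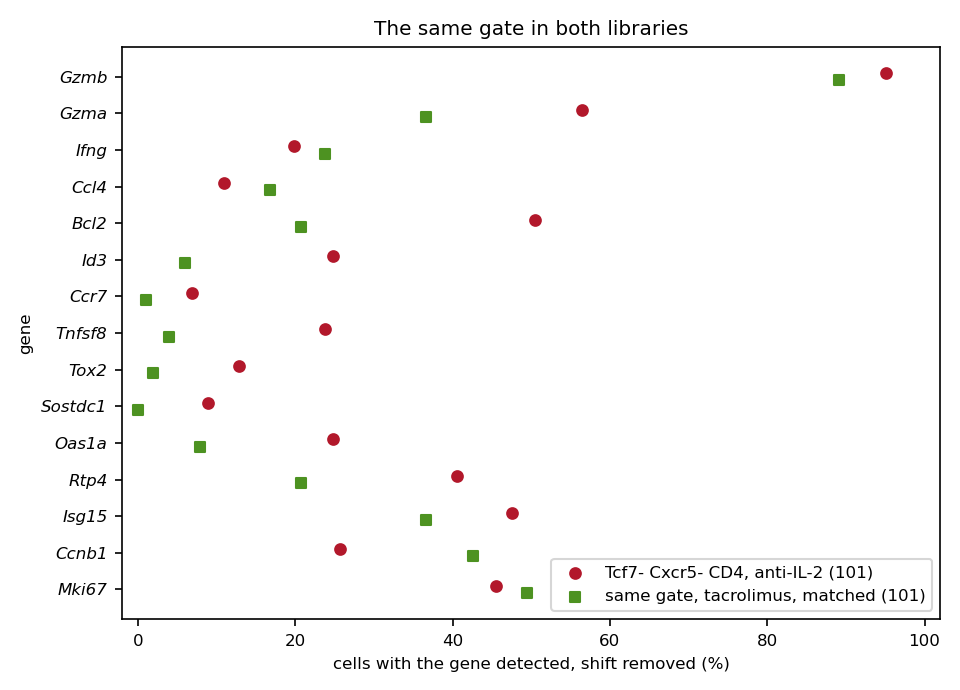
Share of cells with each gene detected after removal of the integration shift (x axis, percent) in 101 anti-IL-2 Tcf7- Cxcr5- CD4 cells and 101 tacrolimus cells of the same gate matched on gene number, for 15 genes (y axis). Gzmb was in 95.05% of anti-IL-2 members and 89.1% of tacrolimus cells, whereas Bcl2 was in 50.5% of anti-IL-2 members and 20.8% of tacrolimus cells and Id3 in 24.8% and 5.94%; there is 1 library per treatment.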

How the data were processed

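Spleen cells were profiled with a droplet-based 5′ kit, per the labels' protocols. Cell Ranger 3.1.0, Seurat (no version) and mm10 are named in the submitters' processing notes. Filters on reads and cells are not given there. Both files were deposited as natural log values of 2000 genes. The tacrolimus values were whole UMIs scaled to 50000 per cell (100% whole, tolerance 0.01). Of the anti-IL-2 values, 13.9% were below 0 and 42.0% exactly 0, as left by batch integration. The design had expected either these or UMI counts. The tacrolimus file also held 308 anti-IL-2 columns identical to the other file, used once (17 members among them).

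Members and gene lists were chosen with earlier results of these data known. Cells needed 200 genes above 0.7. No doublet caller was run, and cells with both Cd4 and a Cd8 gene were left out by the gate. Each member was paired with 1 other CD4 cell by optimal assignment on the log number of detected genes (91 of 101 pairs within 10%, largest ratio 1.51). Shares have exact Clopper-Pearson 95% intervals, ratios exact conditional ones, and log2 ratios 0.5 cells added to each count. Named genes were the 15 with the highest and the 15 with the lowest difference past the size rule, without the genes of the gate and of the exocrine pancreas, and members of the lists. Some list genes are counted with their list but not reported here by name.

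As an alternative, UMI totals were fitted and the shift, taken as shared by 30 neighbouring cells, was removed, with a value above 0.5 of the 1-UMI level read as detected. Both detections were tested on simulated data, in which tacrolimus cells were integrated with Seurat 5.3.0 (157 CD4 cells, dividing against other, 2000 genes). The simulated cells came from the tacrolimus library alone. How well either detection does on the shift between the real libraries was therefore not tested. With the shift removed 426 of 437 true calls were recovered, with 13 false calls among 437 genes without one. At the cutoff of 0.7, 404 were recovered, with 24 false calls among 441, and the 95th percentile of the error of a difference was 15.6 points, against 4.44 with the shift removed. In 844 simulated cells the fitted total was a median 1.18 times the true one, so totals given here are approximate. Coordinates are from GENCODE M21. Scripts used Python 3.11.15, numpy 2.4.6, pandas 2.3.3 and scipy 1.17.1.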

Additional observations from a re-analysis of the deposited data

How the results depend on the processing

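The number of Tcf7- Cxcr5- cells was 101 as reported, 82 at a cutoff of 0.5, 55 with at least 300 genes per cell, 39 among non-dividing cells and 57 among cells with Cd40lg, the last chosen after seeing the data. Counts of genes by the size rule stayed within 1.5 times of the 198 higher and 116 lower in every alternative run, between 167 and 283 higher and between 90 and 162 lower. Without depth matching the all-gene median log2 ratio moved to 0.23, against 0.02 with it. Of the list medians, Th1 and inflammatory effector was 1.19 at a cutoff of 1 and 0.09 at a cutoff of 0.5, where 0 of its 12 genes were higher, anergy -1.11 at a cutoff of 1 and -1.38 with the shift removed from genes and gate, and IL-2 receptor and STAT5 target 0.55 among non-dividing cells. The cause was not tested. The other list medians stayed within the counting intervals of their genes. For single genes, Ccl3 had a log2 ratio of -0.61 at a cutoff of 0.5, and Ctrb1 -0.74 with the shift removed. Of 1338 values of single genes 1281 stayed within their interval, 55 moved beyond it, and 2 reversed. Removal of the shift with the members unchanged, like the cells with Cd40lg, was added after seeing the data.

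No paired analysis was possible because there was 1 library per treatment. With 101 cells, shares near 50% carry intervals of about 10 points to either side, genes under 5% of cells could not be called, and genes in most matched cells could not be higher by 1.5-fold. Cells could not be assigned to animals, so the spread between animals is not known.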
